A study of Rattus norvegicus with 8 samples.

Results

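Acute phase plasma proteins are made by hepatocytes, secreted into the blood, and change in amount during inflammation. The 10 genes described here are Crp, Orm1, A2m, Hp, Hpx, Fga, Fgb, Fgg, Lbp and Itih4, chosen by name and found through probe sets annotated to exactly 1 gene. They had 13 probe sets among the 31042 that were tested, and 10 of the 14217 genes that had such a probe set. The values come from Affymetrix 3′ expression arrays of whole liver, 1 array per rat, from male Sprague-Dawley rats aged 7 weeks. In 4 livers (L. brevis rats 1 to 4) the rats had received for 2 weeks a CRF-1 rodent diet with cholesterol, cholic acid and viable freeze-dried cells of Lactobacillus brevis 119-2, a strain isolated from turnip. In the other 4 (control rats 1 to 4) the diet lacked the bacterium. Per the series' design text, each kg of either diet held 10 g of cholesterol with 5 g of cholic acid, each kg of the L. brevis diet also held 10 g of the bacterium, and each diet was fed to 11 rats. The control arrays' source label names CRF-1 alone, and the design text was followed here. Both groups therefore carry the cholesterol and cholic acid load, and no liver of a rat without that load was part of the comparison. Per the titles, the rats of a group are biological replicates.

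In an acute phase response, interleukin-6 acts on hepatocytes through Il6r and the shared subunit Il6st (gp130) and activates STAT3, while interleukin-1 and tumour necrosis factor act through NF-kB and the C/EBP factors. Positive acute phase proteins then rise in plasma, and negative ones such as albumin and transthyretin fall. The strength of the response differs between species: in the rat A2m and Orm1 are strongly induced, whereas Crp, a prime marker in humans, is already abundant in healthy rats.

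The deposited signals are on a log2 scale, and each difference below is the L. brevis mean minus the control mean. A signal depends on its probes, so levels are compared between rats for a gene and not between genes. As deposited, 24719 of the 31042 probe sets had the same value in all 8 livers within 0.01 log2, and a difference could be measured for the other 6323, called varying below. Of the 10 genes, 8 had a varying probe set. Hpx, the haem scavenger haemopexin, held 13.19 on all arrays, and Itih4, an inter-alpha-trypsin inhibitor heavy chain, held 13.31, so neither gives a measured difference. Array medians lay between 6.61 and 6.63. All 8 hepatocyte markers were measured and 5 varied, from Apob, at 13.50 to 13.54 in L. brevis livers and 13.50 to 13.51 in control livers, to Tat, a glucocorticoid-induced enzyme, at 8.84 to 10.17 in L. brevis livers and 8.13 to 9.59 in control livers. Alb held 14.55 on all arrays, which shows its signal but no difference. In L. brevis rat 2 the skeletal muscle genes Acta1 and Mb stood apart, at 12.45 and 9.07, against at most 5.54 and 6.36 in the other livers. Of 8 measured muscle genes 6 varied. Ckm and Tnni2 were also highest in that rat, at 7.78 and 8.25, whereas Myh1 (11.31) and Actn3 (6.38) lay close to control livers, at up to 11.32 and 6.32.

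Crp and Orm1 had higher signals in every L. brevis liver than in any control liver, while A2m, Hp, Lbp and the fibrinogen chains overlapped between the diets. None of the 8 measurable genes passed the test over all probe sets (limma, adjusted p under 0.05). That threshold was passed by 44 of all probe sets (0.142%), of which 7 varied (0.111% of the varying ones). A fit to the varying ones alone called 0.0633% of them, and none of the 8 genes either. At an unadjusted p under 0.05 stood 2 of the 8 genes, Crp and Orm1, a share close to the 20.6% of all varying genes at that limit. Both were on the higher side, where 6.91% of varying genes stood. The diets did not overlap in the same 2 of 8 genes, both higher, against 10.4% of varying genes in either direction and 3.02% on the higher side. The median difference of the 8 genes was 0.06, against -0.04 over the 3806 varying genes.

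**Figure D1:**
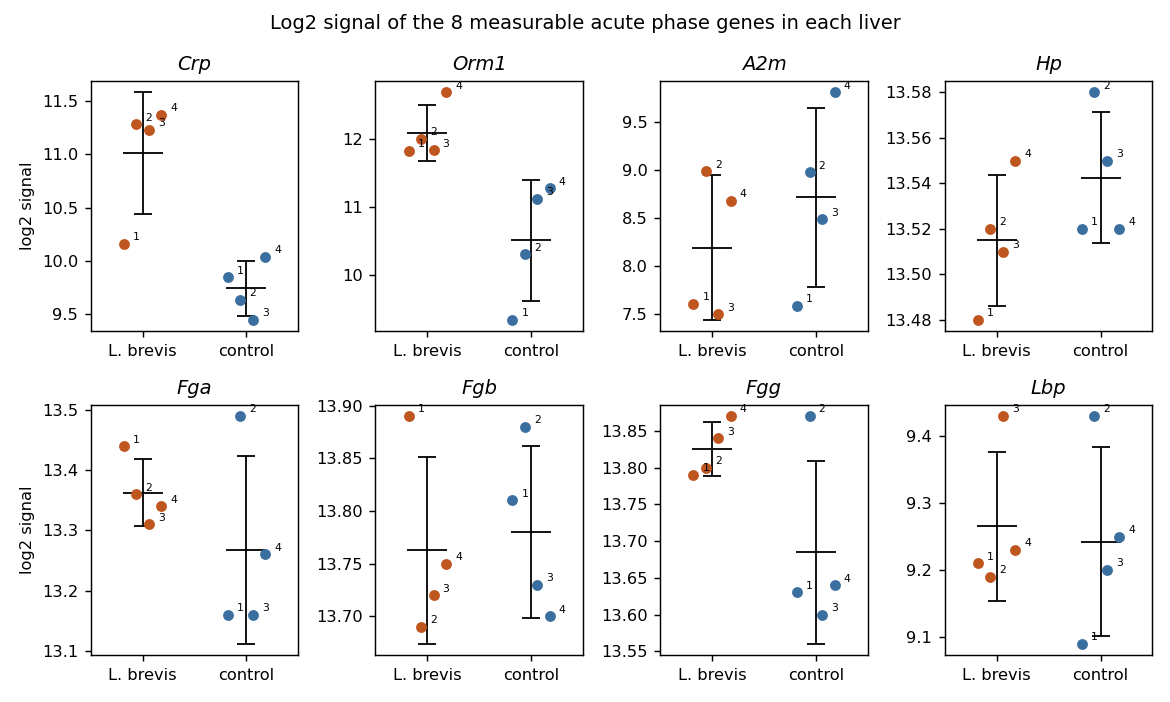
Log2 signal of the 8 measurable genes in each liver, L. brevis rats left and control rats right in each panel, numbered by rat, with bars for the mean and SD of 4 rats. The 2 diets separate for Crp (10.16 to 11.37 in L. brevis rats, 9.45 to 10.04 in control rats) and Orm1 (11.82 to 12.68 in L. brevis rats, 9.34 to 11.27 in control rats). Each panel has its own vertical scale.

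Crp encodes C-reactive protein, a pentraxin that binds phosphocholine on microbes and damaged cells. It had 10.16, 11.28, 11.23 and 11.37 in L. brevis rats 1 to 4, against 9.85, 9.64, 9.45 and 10.04 in control rats 1 to 4. L. brevis rat 1 lay just above the highest control, and L. brevis rats 2 to 4 lay over 1 log2 unit above it. The mean was 11.01 ± 0.57 in L. brevis livers and 9.75 ± 0.25 in control livers (SD, n = 4 each). The difference of +1.26 (SE 0.31, 95% interval 0.52 to 2.01) equals a 2.40-fold higher signal, with an adjusted p of 0.320 by limma over all probe sets and 0.116 over varying ones. By exact permutation of the rats the two-sided p was 0.0286, the smallest that 4 against 4 can give. The limma call depended on L. brevis rat 1, the lowest of its diet, and leaving out that value was bound to raise the difference. Without that rat the difference was +1.54 (SE 0.15, adjusted p = 0.0281, limma), in a fit that called 0.287% of all probe sets higher. That fit called 89 probe sets higher and 91 lower, against 17 and 27 with all rats. Without that rat the diets also no longer overlapped in the GAPDH control for RNA length described below, so diet and that control cannot be told apart there. In whole liver, a different number of cells of a type and a different amount of RNA per cell cannot be told apart.

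Orm1 encodes alpha-1-acid glycoprotein, a carrier of drugs and lipids in plasma. It had 11.82, 12.00, 11.83 and 12.68 in L. brevis rats 1 to 4, against 9.34, 10.30, 11.12 and 11.27 in control rats 1 to 4. The L. brevis livers were close together apart from rat 4, whereas the controls were spread over 1.93 log2 units with rat 1 lowest. The mean was 12.08 ± 0.41 in L. brevis livers and 10.51 ± 0.89 in control livers (SD, n = 4 each). The difference of +1.57 (SE 0.48, 95% interval 0.40 to 2.75) equals a 2.97-fold higher signal, with an adjusted p of 0.347 by limma over all probe sets and 0.136 over varying ones. The exact permutation p was again 0.0286. A difference of at least 1 log2 unit on the higher side was found in 1.42% of varying genes, 54 of 3806, Crp and Orm1 among them. Leaving out single rats gave differences from +1.18, without control rat 1, to +1.83, without control rat 4.

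The promoters of Crp and Orm1 are shown because these are the 2 genes whose diets did not overlap. The sequences are RefSeq's for build GRCr8 and run 5′ to 3′ on the gene's strand from 250 bases before to 50 bases after the gene's start, at chr13:87693812-87694111 (plus strand) and chr5:81788259-81788558 (plus strand). Capitals mark every match, on either strand, to 4 motifs: TTCNNNGAA (bound by STAT factors), CTGGGAA (an interleukin-6 response element), TTNNGNAA (C/EBP) and GTTAAT (the half-site of HNF1).
Crp: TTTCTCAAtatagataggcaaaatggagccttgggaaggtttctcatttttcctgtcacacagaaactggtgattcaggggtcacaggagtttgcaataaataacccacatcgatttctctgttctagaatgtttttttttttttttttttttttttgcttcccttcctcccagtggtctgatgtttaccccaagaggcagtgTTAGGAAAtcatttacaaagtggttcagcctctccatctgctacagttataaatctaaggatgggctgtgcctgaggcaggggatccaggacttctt
Orm1: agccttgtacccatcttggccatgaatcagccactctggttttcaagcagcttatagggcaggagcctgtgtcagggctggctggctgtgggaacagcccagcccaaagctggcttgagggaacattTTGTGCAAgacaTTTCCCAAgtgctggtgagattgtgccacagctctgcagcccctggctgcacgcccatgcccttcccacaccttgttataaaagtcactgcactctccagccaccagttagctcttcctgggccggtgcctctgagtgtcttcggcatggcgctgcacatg
Each of these promoters held 2 matches to TTNNGNAA and none to the other 3 motifs. In Orm1 the matches began at -123 and -111 from the start, and in Crp at -250 and -47. TTNNGNAA is loose, and 40.8% of 27457 promoters of that length held it. A match is a description of letters and no evidence of binding, and none bears on a factor's activity in these livers.

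**Figure D2:**
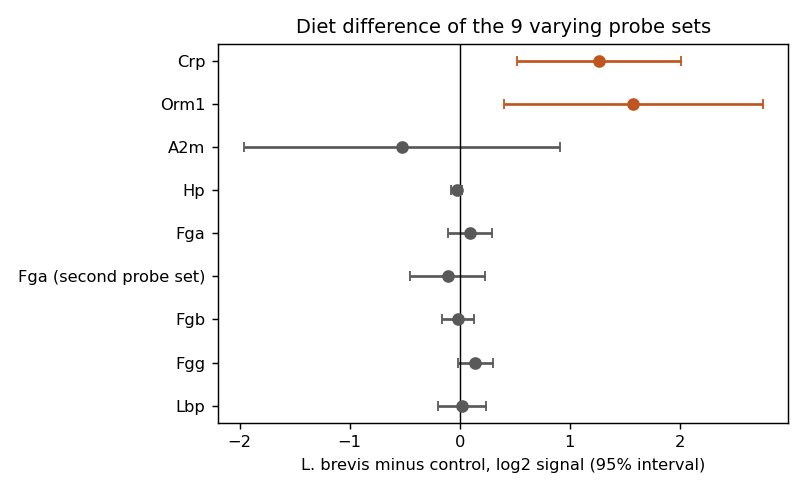
Difference in log2 signal, L. brevis minus control, for the 9 varying probe sets of the 8 genes, with 95% intervals from limma. The intervals of Crp (0.52 to 2.01) and Orm1 (0.40 to 2.75), in orange, lie above 0, and the 7 others span it.

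A2m, alpha-2-macroglobulin, is a protease inhibitor and the classic major acute phase protein of the rat. It had 7.61, 8.99, 7.50 and 8.68 in L. brevis rats 1 to 4, against 7.59, 8.98, 8.49 and 9.81 in control rats 1 to 4. The diets overlapped, with L. brevis rats 1 and 3 and control rat 1 low and control rat 4 highest. The difference was -0.52 (SE 0.59, 95% interval -1.96 to 0.91, adjusted p = 0.808 by limma), so that a change of more than 1 log2 unit downwards is not outside the interval. It was -0.16 without control rat 4 and -0.90 without control rat 1, and -1.42 (SE 0.75, adjusted p = 0.901, limma) with a GAPDH measure of RNA length in the fit. The rats differed more in A2m than in most genes: its SD within diets, 0.84, exceeded that of 96.1% of varying probe sets, and those of Orm1 (0.69) and Crp (0.44) exceeded 93.5% and 82.0%.

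Hp encodes haptoglobin, which captures free haemoglobin. It lay between 13.48 and 13.55 in L. brevis livers, and between 13.52 and 13.58 in control livers. These 8 values span 0.10 log2 units, and the difference of -0.03 (SE 0.02, 95% interval -0.08 to 0.02) was within that spread (adjusted p = 0.634, limma). The SD of Hp within diets, 0.028, exceeded that of 2.8% of varying probe sets. The mean signal of Hp was 13.53, on arrays whose highest value was 15.22. The probe sets that stand for Fga, Fgb and Fgg were similarly high, at 13.31, 13.77 and 13.76. Whether so high a signal narrows the differences between rats was not tested.

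Lbp encodes the lipopolysaccharide-binding protein, which hands bacterial lipopolysaccharide to CD14. It had 9.21, 9.19, 9.43 and 9.23 in L. brevis rats 1 to 4, against 9.09, 9.43, 9.20 and 9.25 in control rats 1 to 4. Each diet had 1 high liver at 9.43, L. brevis rat 3 and control rat 2. The difference was 0.02 (SE 0.09, 95% interval -0.20 to 0.24, adjusted p = 1.0 by limma). Cd14, the receptor that takes over the lipid, held 8.97 on all arrays.

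Fga, Fgb and Fgg encode the alpha, beta and gamma chains of fibrinogen, which is cut by thrombin to form the clot, and lie next to each other on chromosome 2. Fgg had 13.79, 13.80, 13.84 and 13.87 in L. brevis rats 1 to 4, against 13.63, 13.87, 13.60 and 13.64 in control rats 1 to 4. All L. brevis livers lay above 3 of the controls, and control rat 2 lay with them. The difference was +0.14 (SE 0.06, 95% interval -0.02 to 0.30, adjusted p = 0.503, limma). Without control rat 2 it was +0.20 (SE 0.02, adjusted p = 0.115, limma). Fga had 13.44, 13.36, 13.31 and 13.34 in L. brevis rats 1 to 4, against 13.16, 13.49, 13.16 and 13.26 in control rats 1 to 4. Here too control rat 2 was the highest of the 8, and the difference was +0.09 (SE 0.08, 95% interval -0.11 to 0.29, adjusted p = 0.750, limma), or +0.17 without that rat (SE 0.04, adjusted p = 0.427, limma). A second varying probe set of Fga, of lower signal, gave -0.11 (SE 0.14, 95% interval -0.45 to 0.23, adjusted p = 0.883, limma), the opposite direction, and the 2 probe sets correlated at r = 0.29 over the 8 rats. Fgb had 13.89, 13.69, 13.72 and 13.75 in L. brevis rats 1 to 4, against 13.81, 13.88, 13.73 and 13.70 in control rats 1 to 4. Its difference was -0.02 (SE 0.06, 95% interval -0.16 to 0.13, adjusted p = 1.0, limma), with L. brevis rat 1 and control rat 2 high. The 2 other Fgb probe sets held 6.15 and 6.10 on all arrays.

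The fibrinogen promoters are shown beside those of Crp and Orm1 because the 3 genes are well-known targets of interleukin-6 whose diets overlapped. They come from the same RefSeq table (GRCr8) with the same capitals, at chr2:170671919-170672218 (plus strand), chr2:170700826-170701125 (minus strand) and chr2:170652833-170653132 (plus strand).
Fga: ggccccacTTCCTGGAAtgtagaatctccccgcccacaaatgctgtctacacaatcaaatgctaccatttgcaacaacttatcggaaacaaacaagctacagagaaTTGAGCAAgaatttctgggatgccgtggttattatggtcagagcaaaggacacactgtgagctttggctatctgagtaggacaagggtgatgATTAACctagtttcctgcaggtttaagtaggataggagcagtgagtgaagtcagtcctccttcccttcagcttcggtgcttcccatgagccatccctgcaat
Fgb: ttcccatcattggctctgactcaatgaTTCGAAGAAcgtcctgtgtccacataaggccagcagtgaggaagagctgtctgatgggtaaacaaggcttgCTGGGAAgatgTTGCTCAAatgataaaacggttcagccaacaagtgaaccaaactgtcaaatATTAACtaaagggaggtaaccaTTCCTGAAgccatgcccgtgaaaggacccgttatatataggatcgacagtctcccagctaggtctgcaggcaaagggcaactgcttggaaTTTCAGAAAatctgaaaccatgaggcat
Fgg: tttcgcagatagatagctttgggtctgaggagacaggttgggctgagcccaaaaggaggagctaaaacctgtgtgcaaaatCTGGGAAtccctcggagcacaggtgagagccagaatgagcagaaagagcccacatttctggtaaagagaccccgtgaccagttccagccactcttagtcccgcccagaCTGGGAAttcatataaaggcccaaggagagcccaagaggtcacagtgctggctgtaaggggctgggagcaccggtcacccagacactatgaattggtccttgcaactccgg
The interleukin-6 response element CTGGGAA occurred in Fgb, at -152, and in Fgg, at -169 and -61, and in 10.9% of all 27457 promoters. TTCNNNGAA occurred in Fga, at -242, and in Fgb, at -223, and in 8.7% of all promoters. The HNF1 half-site was found in Fga and Fgb, at -52 and -90, and in 7.4% of all promoters. TTNNGNAA, the motif matched in Crp and Orm1, also occurred in Fga, at -144, and in Fgb, at -141, -68, 22 and 23. It did not occur in Fgg, and 40.8% of all promoters held it. Neither CTGGGAA, TTCNNNGAA nor GTTAAT lay in the windows of Crp and Orm1, and from that nothing follows about the factors.

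Whether Crp and Orm1 moved with the other genes was asked across the 8 rats, over all 28 pairs of the 8 measurable genes, with exact two-sided permutation over all pairings and Benjamini-Hochberg adjustment over the 28. No pair passed an adjusted p of 0.05, by Pearson's r or by Spearman's rho, and 2 had an unadjusted p under 0.05 by Pearson's r. Crp and Orm1 had r = 0.73 (exact p = 0.0367, adjusted p = 0.514) and rho = 0.90 (exact p = 0.00456, adjusted p = 0.128). That value includes the diet difference of both genes. With each rat taken as its deviation from its diet's mean, r was 0.16. Without the 2 rats farthest from the median of Crp, L. brevis rats 2 and 4, r was 0.53, and without the 2 farthest from the median of Orm1, control rats 1 and 2, it was 0.84. The diets hold 4 rats each, too few for a test within a diet.

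Crp had r between -0.46, with Fgb, and 0.61, with Fgg, to the 6 other genes, and within diets between -0.69, with Fgb, and 0.44, with A2m. Orm1 had r between -0.40, with Fgb, and 0.50, with Fgg, and within diets between -0.51, with Fgb, and 0.71, with A2m. Within diets r with Orm1 was thus larger for A2m than for Crp, and r with Fgb was negative for both Crp and Orm1. These differences between values of r were not tested. The largest r of the 28 was that of Fga and Fgg, 0.83 (exact p = 0.0118, adjusted p = 0.329), and it was 0.82 within diets. It was 0.72 without control rats 2 and 3, the farthest from the median of Fga, and 0.57 without control rats 1 and 3, the farthest from that of Fgg. Control rat 2 weighed in it: over the 4 controls r was 0.98 and over the 4 L. brevis rats -0.74.

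**Figure D3:**
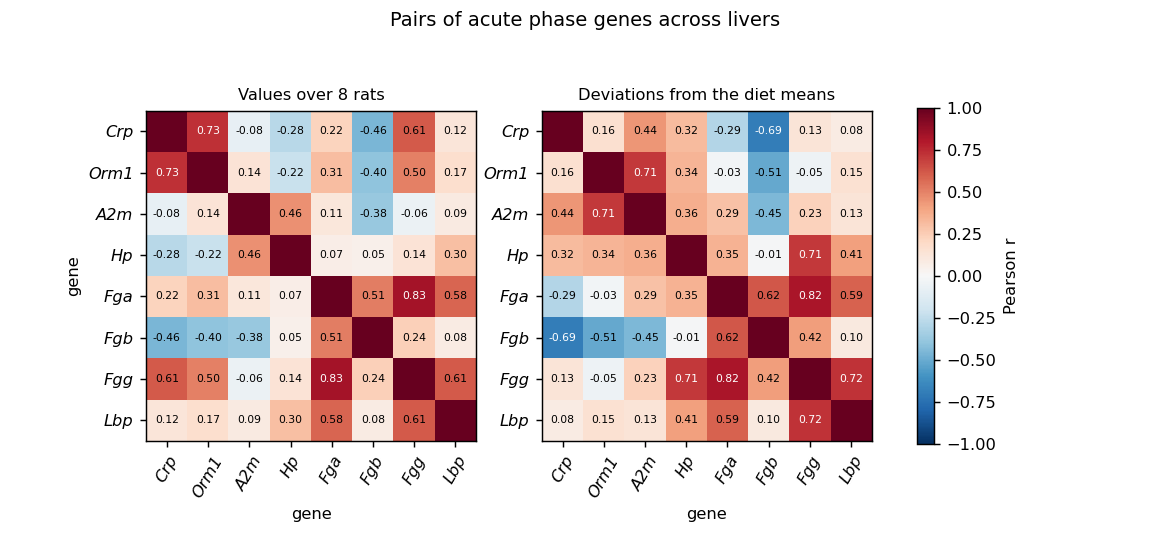
Pearson r for each pair of the 8 measurable genes, on the left over the values of 8 rats and on the right over deviations from the diet means. Crp with Orm1 is 0.73 on the left and 0.16 on the right, whereas Fga with Fgg is 0.83 and 0.82.

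Control rat 2 had the highest signal of the 4 control livers for Hp (13.58), Fga (13.49), Fgb (13.88), Fgg (13.87) and Lbp (9.43), but not for Crp, Orm1 or A2m. The neutrophil and monocyte genes S100a8 and S100a9 were also highest there, at 8.50 and 9.77, against at most 6.68 and 7.41 in the other controls. L. brevis rat 3, which had the highest Lbp of its diet, followed at 7.56 and 8.33, against at most 6.33 and 6.37 in the other L. brevis livers. That rat was not the highest of its diet for Hp, Fgb or Fgg, and it was the lowest for Fga (13.31). Of 7 neutrophil markers 5 were measured and 2 varied, with a mean level of 6.13 to 7.94 in L. brevis livers and 6.35 to 9.14 in control livers, while Csf3r, Np4 and Fcnb held 5.98, 6.41 and 6.49 throughout. Their part in the spread of fibrinogen and Lbp was not tested.

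The arrays differed in a control for RNA length, and the Crp signal followed it across the rats. The GAPDH control probe sets read the transcript's 5′ and 3′ ends, and the 5′ minus 3′ log2 signal falls when RNA or its copies are shortened. It was -2.20, -1.30, -0.94 and -0.68 in L. brevis rats 1 to 4, against -2.89, -1.83, -2.93 and -1.98 in control rats 1 to 4. L. brevis rats 2 to 4 were above all controls, and L. brevis rat 1, the one with the lowest Crp of its diet, was inside the control range (exact p = 0.0857 for the diet difference, two-sided permutation). Over the 8 rats r with this measure was 0.88 for Crp (exact p = 0.00565, adjusted p = 0.0452 over the 8 genes) and 0.73 for Orm1 (exact p = 0.0368, adjusted p = 0.0982). Spearman's rho was 0.81 for Crp (exact p = 0.0218, adjusted p = 0.0871) and 0.76 for Orm1 (exact p = 0.0368, adjusted p = 0.0980). Without the 2 arrays farthest from the median of the measure r was 0.79 for Crp and 0.74 for Orm1, and over deviations from the diet means it was 0.75 and 0.37. Fgg had r = 0.82 (exact p = 0.0195, adjusted p = 0.0782). The others lay between -0.32, for Fgb, and 0.49, for Fga and Lbp.

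With the GAPDH measure as a covariate in the limma fit, the difference was +0.67 for Crp (SE 0.32, adjusted p = 0.861) and +1.10 for Orm1 (SE 0.71, adjusted p = 0.962). The value for Crp is more than 1.5 times smaller than that without the covariate. Fgg and Fga, at +0.14 and +0.09 without it, were at +0.03 (SE 0.08) and +0.03 (SE 0.12) with it, and A2m, at -0.52 without it, was at -1.42 (SE 0.75). Many genes shared this pattern: r with the measure was over 0.8 in 11.6% and under -0.8 in 15.6% of the 3806 varying genes.

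**Figure D4:**
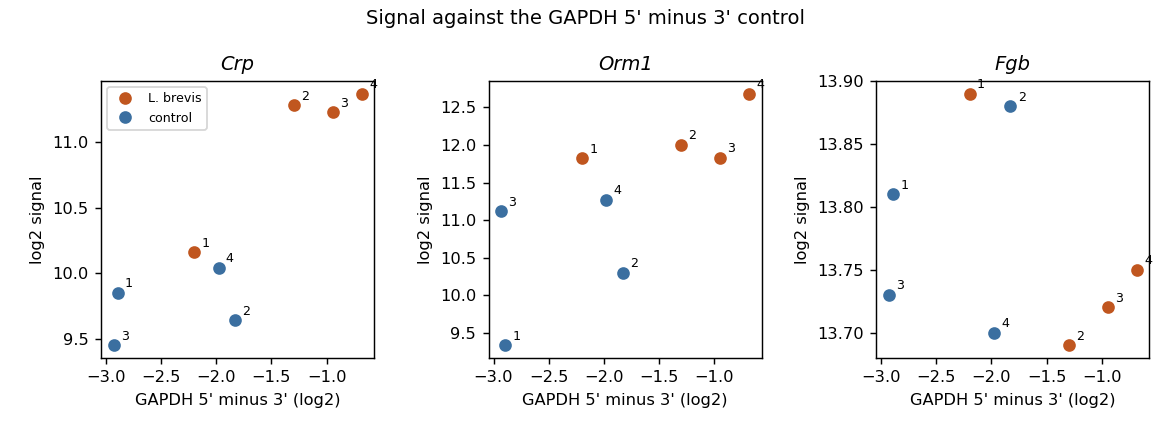
Log2 signal of Crp, Orm1 and Fgb in each liver against the GAPDH 5′ minus 3′ log2 signal of the same array, with rats numbered within their diet. Over the 8 rats r is 0.88 for Crp, 0.73 for Orm1 and -0.32 for Fgb.

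The varying genes whose values over the 8 rats were most like those of Crp by Pearson's r were Mcee (0.98), Cops2 (0.98), Lmbrd1 (0.97), Hsd17b10 (0.97) and Hcn3 (0.97). Mcee and Hsd17b10 encode mitochondrial enzymes of propionate and of branched-chain amino acid breakdown, and Cops2 a subunit of the COP9 signalosome. For Orm1 they were Rpl6 (0.96), Nfib (0.95), Ggh (0.95), Sparc (0.94) and Bcl10 (0.94), of which Rpl6 is a ribosomal protein, Nfib a transcription factor and Sparc a matrix glycoprotein. None of these 10 is an acute phase gene of the lists used here. Their r with the GAPDH measure was 0.79 to 0.92 in the Crp group and 0.71 to 0.83 in the Orm1 group. They were picked for likeness to Crp or Orm1 on the same arrays, so these values add no separate evidence. An r over 0.8 with Crp was found in 8.6% of the 3805 other varying genes, and with Orm1 in 4.3%, while the 6 other measurable genes lay between 0.2% (A2m) and 2.7% (Fgg). An r under -0.8 was found in 15.9% with Crp and in 7.9% with Orm1. By r, Orm1 was number 462 of 3805 in likeness to Crp, and Crp number 306 of 3805 in likeness to Orm1.

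Other plasma proteins of the acute phase showed no called change. Of 22 further positive acute phase genes 18 were measured and 13 varied, 8 with a positive and 5 with a negative difference, none called by limma and none at an unadjusted p under 0.05 (median 0.01). Serpina3n, a protease inhibitor strongly induced by interleukin-6, differed by -0.44 (SE 0.39), Cp, ceruloplasmin, by -0.03 (SE 0.04) and Itih3 by 0.00 (SE 0.04). The smallest unadjusted p in each direction belonged to Mbl1, a mannose-binding lectin, at +0.66 (SE 0.39), and Agt, angiotensinogen, at -0.17 (SE 0.11). Of 12 negative acute phase genes 11 were measured and 9 varied, 5 with a positive and 4 with a negative difference, again none called and none at an unadjusted p under 0.05 (median 0.04). Ttr, transthyretin, differed by +0.09 (SE 0.06) and Rbp4, the retinol carrier, by +0.05 (SE 0.03). Gc, the vitamin D binding protein, at +0.04 (SE 0.02) and Apoa1, the main protein of HDL, at -0.13 (SE 0.06) had the smallest unadjusted p on either side.

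Upstream of these proteins, most cytokine genes gave no measured difference. Of 8 measured ligands only Il1b varied among probe sets used here, with 8.08, 7.41, 8.16 and 7.87 in L. brevis rats 1 to 4, against 7.10, 7.65, 7.73 and 7.23 in control rats 1 to 4. The diets overlapped through L. brevis rat 2 (+0.45, SE 0.22, adjusted p = 0.525, limma). Il6 held 5.99 and Tnf 6.43 on all arrays. Of 8 measured receptors 5 varied, 2 with a positive and 3 with a negative difference (median -0.09). None was called, and 1 of the 5 receptors stood at an unadjusted p under 0.05, against 20.6% of varying genes in either direction. That one was Il6st, the signal-transducing subunit gp130, with 10.85, 10.59, 10.22 and 10.19 in L. brevis rats 1 to 4, against 11.09, 10.94, 11.19 and 10.71 in control rats 1 to 4 (-0.52, SE 0.19, adjusted p = 0.363, limma). L. brevis rat 1 lay inside the control range and the other L. brevis livers below it. Il6r differed by -0.09 (SE 0.21) and Il1rap, the accessory chain of the interleukin-1 receptor, by +0.50 (SE 0.21).

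Of 14 measured signalling and transcription factors 9 varied, 5 with a positive and 4 with a negative difference (median 0.12), none called and 1 at an unadjusted p under 0.05. Irak1, a kinase below the interleukin-1 receptor, had 9.78, 9.67, 9.91 and 9.75 in L. brevis rats 1 to 4, against 10.06, 10.47, 10.21 and 10.18 in control rats 1 to 4. The diets did not overlap, with a difference of -0.45 (SE 0.10, adjusted p = 0.267, limma). It was the 1 gene of these 9 without overlap and the 1 at that p, against 10.4% and 20.6% of varying genes in either direction. Stat3 differed by +0.26 (SE 0.49), Cebpb by +0.26 (SE 0.74) and Cebpd by +0.12 (SE 0.23), and Onecut1, which had the smallest unadjusted p on the higher side, by +1.47 (SE 1.19). Of 8 inhibitors 3 varied, all 3 with a positive difference (median 0.17), none called and none at an unadjusted p under 0.05. Nfkbia, the inhibitor of NF-kB, was the one with the smallest unadjusted p (+0.17, SE 0.21), and Socs3, the feedback inhibitor of STAT3, held 6.23 on all arrays.

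**Figure D5:**
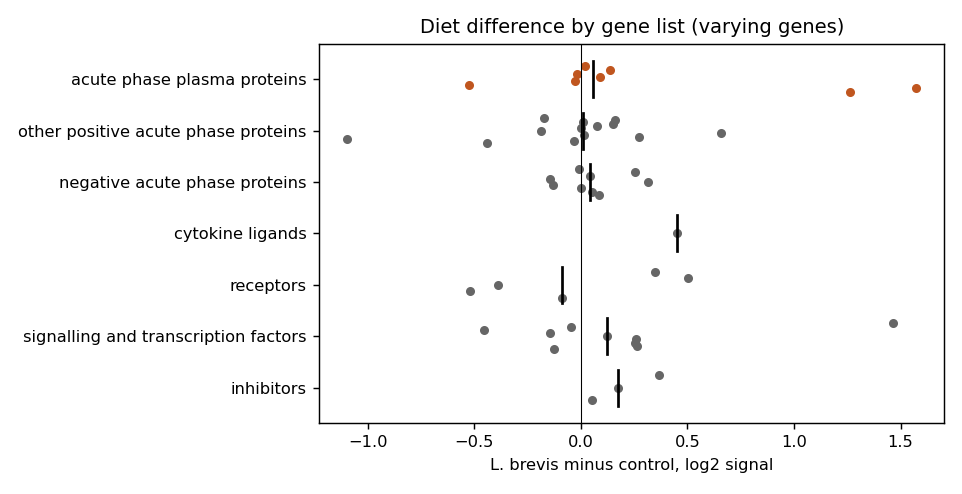
Difference in log2 signal, L. brevis minus control, of each varying gene (points) and its median (bars) for the acute phase plasma proteins and 6 other lists. The medians lie between -0.09 (receptors) and 0.45 (a single cytokine gene), and Crp and Orm1 are the 2 rightmost points of the top row.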

How the data were processed

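Liver RNA of 8 rats was labelled with a 3′ in vitro transcription kit and hybridised to Affymetrix arrays, per the labels' protocols. The authors deposited 1 table of log2 values, already normalized, with array medians from 6.61 to 6.63. The method of summarising and normalizing the probes, like the time of scanning, stands in none of the sources used here. Background flags were not used. Of 31099 probe sets 57 controls were left out. In the platform annotation 20826 probe sets had 1 symbol, 436 several and 9780 none, with symbols updated through gene identifiers. Where a gene had several single-symbol probe sets, the one with the highest mean signal stands for it. The diets were compared with limma 3.58.1 (R 4.3.3) in 1 linear model for each of the 31042 probe sets. Moderated variances followed the mean signal, tests were two-sided, p-values were adjusted after Benjamini and Hochberg over the whole table, and the threshold was 0.05. The fit was tested on simulated data. Probe sets with a range over 0.01 log2 are called varying. Exact permutation used all 70 assignments of 8 rats. The number of arrays limits the precision, and the p-values of a diet difference set it against the spread between these rats.

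The genes named are the 10 members, fixed examples of the other lists, the varying gene of each such list with the smallest unadjusted p in each direction, and the 5 varying genes most like Crp and Orm1. S100a8, S100a9, Cd14, Il6, Tnf and the genes of the cell type lists were singled out after their values were seen. Members, lists, tests and alternatives were chosen with earlier results of these data known. Alternatives were varying probe sets alone, quantile normalization, median centring, a replicate block, array weights, no intensity trend, the GAPDH covariate, no dim probe sets, the mean over a gene's probe sets, and each rat left out. No 2 arrays shared an identical value at a varying probe set within a diet.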

Additional observations from a re-analysis of the deposited data

Results flagged for a closer look

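Of 16 sets of 4 livers, 8 genes in each diet, 3 had 1 liver whose gap to its nearest neighbour, over the set's range, was above Dixon's critical value, and chance marks about 1 set in 20. Crp in L. brevis rat 1 was 10.16, against 11.23 to 11.37 in the other 3 L. brevis livers, and that liver also had the lowest GAPDH 5′ minus 3′ signal of its diet, -2.20. Fgg in control rat 2 was 13.87, against 13.60 to 13.64 in the other controls. Lbp in L. brevis rat 3 was 9.43, against 9.19 to 9.23 in the other L. brevis livers. The part that RNA length or S100a8 and S100a9 signal has in these values was not tested.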

How the results depend on the processing

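Crp and Orm1 stayed higher in L. brevis livers under all 16 alternatives run for each, Crp from +0.67 (GAPDH covariate) to +1.54 (without L. brevis rat 1) with adjusted p from 0.0281 to 0.861, and Orm1 from +1.10 (GAPDH covariate) to +1.83 (without control rat 4) with adjusted p from 0.0721 to 0.962 (limma). The 0.0721 came from median centring, where many probe sets that did not vary reach a small p, which lowers every adjusted p. The next lowest for Orm1 was 0.136 (limma, varying probe sets alone). The number of the 8 genes called was 0 with each alternative except without L. brevis rat 1, where it was 1, so the range over single rats left out is 0 to 1. Crp and Orm1 had an unadjusted p under 0.05 in every fit except that with the GAPDH covariate, joined by Fgg under median centring and by Fga and Fgg without control rat 2. Small differences changed sign: Fgb, from -0.060 to 0.015 with single rats left out, was 0.034 with the GAPDH covariate, 0.020 under median centring, 0.005 without L. brevis rat 2 and 0.015 without control rat 2. Lbp, from -0.034 to 0.085 with single rats left out, was -0.12 with the GAPDH covariate, -0.034 without L. brevis rat 3 and -0.031 without control rat 1. Hp was 0.009 under median centring, and Fga was -0.007 as the mean of its 2 varying probe sets. The cause of these sign changes was not tested.

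Over all probe sets limma called 17 higher and 27 lower. Of these 44 calls 7 were at varying probe sets, and the rest were at probe sets within 0.01 log2 on all arrays. Except in the fit to varying probe sets alone, the counts below also take in probe sets that did not vary. The counts were 30 and 47 with array weights, 5 and 16 without dim probe sets, 0 and 4 over varying probe sets alone (677 and 871 at an unadjusted p under 0.05), 0 and 4 under median centring and 0 and 0 under quantile normalization (2230 and 1144 at an unadjusted p under 0.05). Under median centring the probe sets that did not vary take on the shift of the array, which gives 19706 probe sets a positive and 884 a negative difference at an unadjusted p under 0.05. With the GAPDH covariate 15 were lower. With the replicate block 62 were higher and 66 lower, and no member was called. Equal replicate numbers do not pair the rats by the labels, and deviations of equal-numbered rats correlated at 0.36, 0.20, 0.08 and 0.38 over varying probe sets. Each of the 8 rats correlated best with its own number except L. brevis rat 3 and control rats 3 and 4, a hint from the data and not from the design. With single rats left out the counts ran from 30 to 89 higher and from 35 to 91 lower, and pairs of members past the threshold stayed at 0. Signal over background per probe set is not used here, so the values of dim probe sets such as those of Fgb at 6.15 and 6.10 cannot be told from background.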

Other observations

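Kupffer cell and macrophage markers, from cells that are a source of interleukin-6 and interleukin-1 in liver, had 6 varying members of 7 measured, 5 with a positive and 1 with a negative difference. None was called by limma (median 0.26). An unadjusted p under 0.05 was found in 2, both higher, against 20.6% of varying genes in either direction and 6.91% on the higher side. The mean level of the 6 varying markers was 8.86 to 9.27 in L. brevis livers and 8.64 to 9.09 in control livers, so the diets overlapped in that mean. Adgre1, a surface receptor of macrophages, had 8.26, 7.92, 8.62 and 8.35 in L. brevis rats 1 to 4, against 7.74, 7.79, 7.62 and 7.39 in control rats 1 to 4 (+0.65, SE 0.17, adjusted p = 0.345, limma). It was the 1 marker of the 6 whose diets did not overlap, against 10.4% of varying genes in either direction and 3.02% on the higher side. C1qb, a complement subunit, differed by +0.73 (SE 0.28, adjusted p = 0.389, limma). The other varying markers differed less: Csf1r by +0.40 (SE 0.19), Cd68 by +0.12 (SE 0.10), Clec4f by +0.01 (SE 0.16) and Cd163 by -0.16 (SE 0.11). Their part in the Crp and Orm1 values was not tested.

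Of the other marker lists, none had a called member. Hepatocyte genes had a median difference of 0.04 over 5 varying genes and a mean level of 12.50 to 12.84 in L. brevis livers and 12.38 to 12.70 in control livers. Sinusoidal endothelium genes had -0.41 over 5, all 5 with a negative difference. Of these, 3 stood at an unadjusted p under 0.05, against 20.6% of varying genes in either direction and 6.91% on the higher side. The diets did not overlap in 2, Pecam1 (-0.26, SE 0.06) and Kdr (-0.46, SE 0.10), against 10.4% of varying genes in either direction and 3.02% on the higher side. Neutrophil genes had -0.67 over 2, stellate cell genes 0.01 over 4, skeletal muscle genes 0.48 over 6 and erythroid genes 0.04 over 3. Without the liver of L. brevis rat 2, in which Acta1, Mb, Ckm, Tnni2 and Hbb (14.31) were high, the difference was +1.17 for Crp and +1.60 for Orm1.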
